A study of Bos taurus with 16 samples.

Results

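The transcript units described here were expressed in bovine blastocysts but carried no gene name. In the count tables they bear only a serial name that begins with CUFF., which Cufflinks, the program used for transcript assembly, gives to a transcript built from the reads without a matching gene model. Of 22358 loci counted, 730 had such a name, and the 168 whose CPM (reads of a locus, scaled to a pool total of 1000000), summed over 15 embryo pools, reached 150 were taken as members, which corresponds to a mean of 10 CPM per pool. The members were therefore chosen on their abundance, and their abundance is a description and not a finding. The last units to reach the sum were CUFF.528.1 at 150.2, CUFF.2977.1 at 163.6 and CUFF.3265.1 at 163.9, and the first to miss it were CUFF.803.1 at 147.2, CUFF.937.3 at 146.2 and CUFF.3088.1 at 144.7.

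The pools came from 8 Holstein cows, 4 per treatment, and each cow gave 2 pools of expanded blastocysts. By the methods of the study the pools held few embryos, and control pools 4.1 and 4.2 and methionine-rich pool 8.2 were a single blastocyst each. The number of embryos was not balanced between treatments, most methionine-rich pools holding more than the control pools. The control cows received a basal ration without added methionine, and the methionine-rich cows received the same basal ration with rumen-protected methionine, in both cases from calving until the embryos were collected. All cows, control cows included, were superovulated with FSH and given hCG, and they were inseminated with semen of 1 of 2 sires. The donors had been chosen for the number and quality of their embryos, the sires were balanced between treatments, and the pool labels do not give the sire, so that a sire difference could not be examined. The labels name the material as IVF embryos, whereas the methods of the study describe embryos flushed from the uterus. Pools are named by cow and pool number, control pool 1.1 to control pool 4.2 and methionine-rich pool 5.1 to methionine-rich pool 8.2.

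Assembly from reads recovers transcripts that a gene annotation misses, such as long noncoding RNAs, ends of genes that extend beyond their models, genes in unfinished stretches of a genome, and transcribed repeats. In the blastocyst, where the outer trophectoderm forms the future placenta and the inner cell mass forms the embryo proper, many such RNAs are known. The cattle genome build used for these reads, bosTau7, holds many short scaffolds that were not placed on any chromosome, and genes on such scaffolds are often absent from annotations. The count tables give no coordinates and no sequence for the members, and the position the study states for CUFF.606.1 is not used here, so that no sequence is shown and coding and noncoding units could not be separated.

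Total counts were between 5624126 and 7826542 in the 15 pools and 1745048 in control pool 3.2, which the study left out for its low number of exon reads and which is given here only beside the others. A floor of 3 counts equals 0.383 to 0.533 CPM in the 15 pools. Of the fixed lists of cell type markers, the trophectoderm list summed to between 3050.7 and 9677.9 CPM per pool. The inner cell mass list summed to between 208.5 and 1817.0 CPM. KRT18 and GATA2 of the former had medians of 3389.6 and 660 CPM, but CDX2 had 1.96 CPM and TFAP2A and ELF5 had 0 CPM. KLF4 and DPPA3 of the latter had medians of 176.5 and 94.3 CPM, but NANOG and LIN28B had 3.705 and 0.528 CPM. IFNT, an interferon of the trophectoderm, did not exceed 0.495 CPM at the 1 locus of that name. Control pool 2.1 stood apart by the leukocyte list. The 9 listed genes summed to 2330.9 CPM there and to between 17.8 and 57.4 CPM in the other 14 pools. LAPTM5 (1239.1 CPM), NKG7 (479.7 CPM), TYROBP (377.3 CPM) and LCP1 (183.3 CPM) made up most of that sum. The study reports all of these among its most significant genes, higher in control, and the marker lists were chosen with earlier results of these data known. The high sum in control pool 2.1 is therefore a description and not a test. CD74, CORO1A and CD52 were also highest there, but at only 2.49, 2.49 and 7.65 CPM. PTPRC (3.2 CPM) and CD48 (35.6 CPM) were higher in other pools, at up to 6.68 and 54.4 CPM. In these pooled embryos, fewer cells of a type and less RNA per cell cannot be told apart.

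The members were not scattered evenly among the annotated genes. Loci are numbered in the order of the assembly, in which named loci of a chromosome mostly stood together. Of 15903 consecutive pairs of named loci found in the RefSeq table of another cattle assembly, ARS-UCD2.0, 98.96% lay on the same chromosome. Within this order, the 331 loci from number 21139 to number 21469 formed an unbroken run that held only CUFF. names and no annotated gene. The next longest run of such loci counted 4. The run sat between DLL1, a Notch ligand, at number 21138 and ATP1B4, a member of the ATPase beta subunit family, at number 21470, and these genes lie on different chromosomes in the RefSeq table.

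This run held 45.3% of all unannotated loci but 72.0% of the members, 121 of 168, and the other 47 members stood among annotated loci. In the run 36.6% of the units reached the sum of 150, against 11.8% of the unannotated units elsewhere. No locus was named for any of the 37 mitochondrial genes of the RefSeq table, so that mitochondrial transcripts, if any were counted, are not labelled as such. The sources used here do not tell which scaffold or chromosome the run belongs to, and whether it holds mitochondrial, unplaced or other sequence was not tested.

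**Figure D1:**
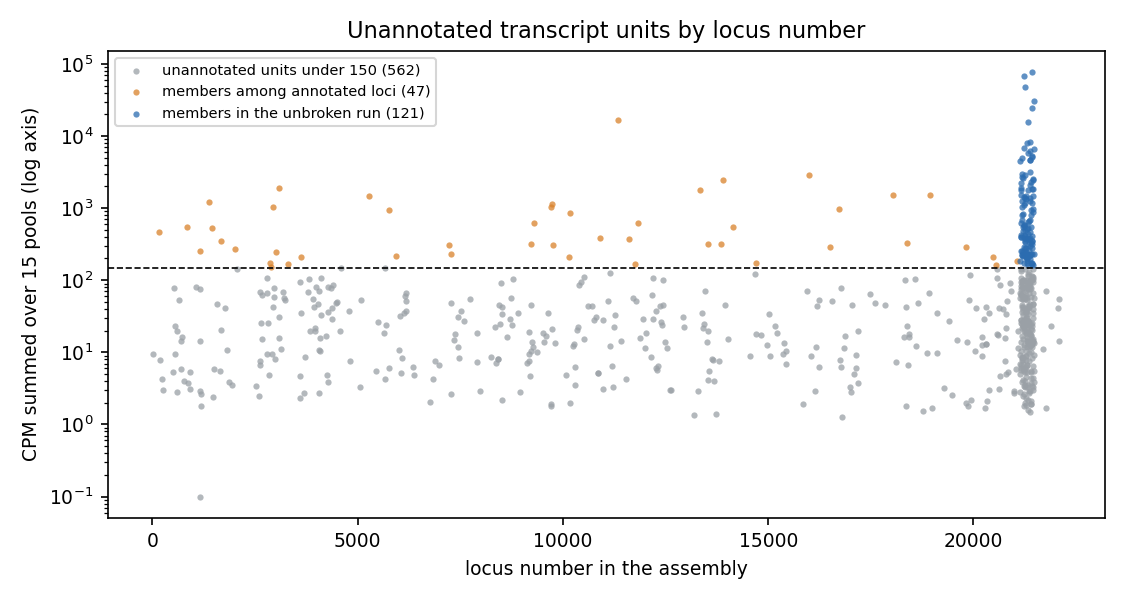
Summed CPM over 15 pools (log axis) of the unannotated units against their locus number, with 562 units under the sum of 150 in grey, 47 members among annotated loci in orange and 121 members of the unbroken run in blue; the dashed line marks 150, and the 1 unit without a count is drawn at the bottom. The blue column between locus numbers 21139 and 21469 contains 9 of the 10 most abundant units.

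Together the members took 3.11% ± 0.37 of all counts in control pools (SD, n = 7) and 3.06% ± 0.12 in methionine-rich pools (SD, n = 8). The share lay between 2.59% and 3.63% in the 15 pools, and the methionine-rich range of 2.87% to 3.22% fell inside the control range. Members of the run contributed 2.76% ± 0.25 (SD, n = 15) and members among annotated loci 0.315% ± 0.038 (SD, n = 15). The output was concentrated in a few units, the top 3 holding 41.63% and the top 10 holding 65.55% of the members' CPM. A mean of 1000 CPM was reached by 7 members and a mean of 100 CPM by 41. CPM was not divided by transcript length, which the tables do not give, so that an order between units is an order of reads and not of molecules.

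The most abundant unit was CUFF.3369.1 (XLOC_021429, in the run), the locus with rank 28 in the mean CPM of all loci. Its CPM in control pools 1.1, 1.2, 2.1, 2.2, 3.1, 4.1 and 4.2 ran from 3461.8 to 6474.3 with a median of 4903.2, and in the 8 methionine-rich pools from 3614.9 to 6332.8 with a median of 5381.7. The treatments overlapped almost completely, and no pool lay far from the others. In control pool 3.2 the same unit fell to 834.4 CPM. Its coefficient of variation (CV) over the 15 pools was 0.19, lower in only 2 other members.

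Next in abundance, CUFF.3182.1 (XLOC_021242) and CUFF.3190.1 (XLOC_021250), were less even. CUFF.3182.1 had between 2123.7 and 7385.4 CPM (median 4849.2) in control pools and between 2362.4 and 9249.6 CPM (median 4437.1) in methionine-rich pools. Its highest value stood in methionine-rich pool 8.2, the single blastocyst, while pool 8.1 of the same cow held its methionine-rich minimum. Pools of 1 cow thus spanned the whole methionine-rich range. CUFF.3190.1 showed the opposite pattern in this cow, with 4086.3 CPM in pool 8.1, its methionine-rich maximum, and 998.7 CPM in pool 8.2, its minimum. In control pools it lay between 2166.9 and 8171.5 CPM (median 2818.9), with control pools 3.1 and 4.2 above every methionine-rich pool. In control pool 3.2 it reached 9473.7 CPM, more than in any other pool.

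CUFF.1726.1 (XLOC_011342) was the only unit of the top 10 outside the run and the steadiest of all members, with a CV of 0.15. It had 904.1 to 1225.2 CPM (median 1025.9) in control pools and 919.8 to 1365.1 CPM (median 1153.2) in methionine-rich pools. The loci listed beside it, LOC100849202 and LOC100852030, averaged 0.011 and 9.84 CPM, so that its counts exceeded those of both neighbours many times over. Other steady units were CUFF.3119.1, CUFF.3403.1 and CUFF.3402.1, with CVs of 0.18, 0.24 and 0.26.

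CUFF.3261.1 (XLOC_021321) stood out in 1 pool. It had 3046.5 CPM in control pool 4.2 but 540.8 to 976.5 CPM in the other 6 control pools and 794.8 to 1287.8 CPM in the methionine-rich pools. Control pool 4.2 also held, of the 15 pools, the highest sums of the trophectoderm, inner cell mass and primitive endoderm lists, although KLF4 and FN1 carried the latter sums: KLF4 gave 1624.2 of 1817.0 CPM and FN1 gave 3703.1 of 3922.4 CPM. NANOG, SOX2, SALL4 and PDGFRA were highest in other pools. Of the trophectoderm list, KRT18, TEAD4, CDX2, TFAP2A, ELF5 and IFNT were also highest in other pools, and GATA2, GATA3, TFAP2C and KRT8 in control pool 4.2. The pool was made from a single blastocyst, and the part of this in its values was not tested. Of the named loci, the one whose log2(CPM + 1) pattern over the 15 pools was most like that of CUFF.3261.1 was LDHB, a lactate dehydrogenase subunit, at Pearson's r = 0.91 and Spearman's rho = 0.84. This locus is the highest of 10047 named loci compared, so that a high value was found for every unit of the top 10, from 0.80 for CUFF.3190.1 with TSG101 to the 0.91 just given. Such values are descriptions over 15 pools that share cows and amplification.

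**Figure D2:**
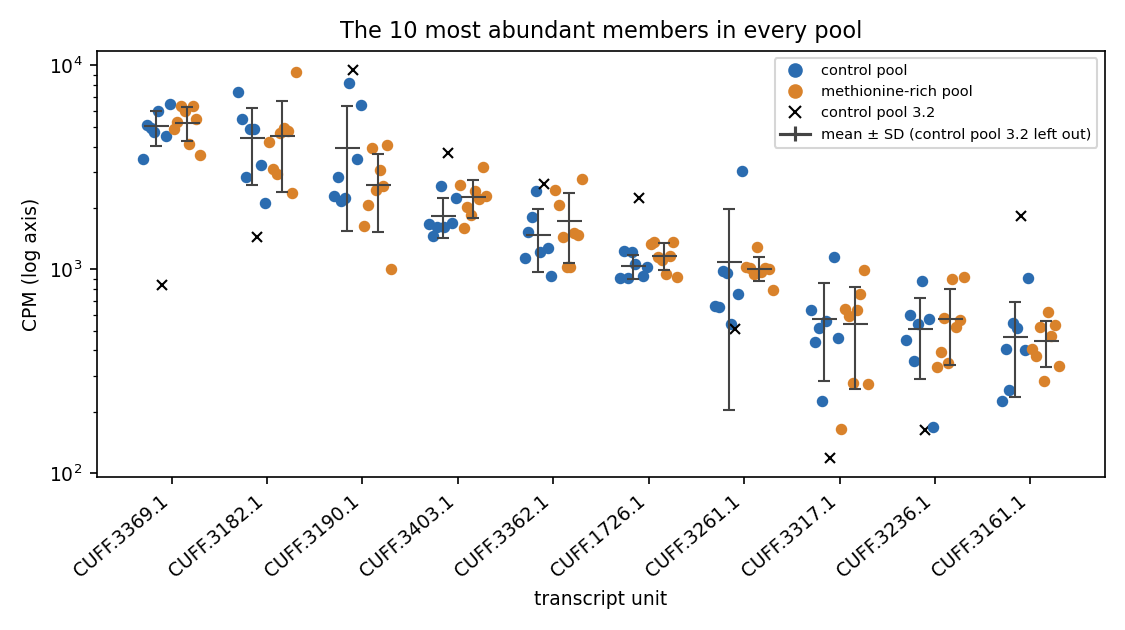
CPM (log axis) of the 10 most abundant members in every pool, control in blue, methionine-rich in orange and control pool 3.2 as a black cross; bars are mean ± SD of 7 control and 8 methionine-rich pools. The treatments overlap for all 10 units, and control pool 4.2 stands alone at 3046.5 CPM for CUFF.3261.1.

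Breadth across pools differed with position, and so did abundance. The median of the mean CPM was 36.2 for members of the run and 23.0 for members among annotated loci. Position and abundance were not separated. Of the 168 members, 110 (65.5%) had at least 1 CPM in all 15 pools. In the run this held for 88 of 121 members (72.7%) and among annotated loci for 22 of 47 (46.8%). As a comparison, 86.5% of the 5145 named loci with the same minimum sum and 70.7% of the 263 loci with only a LOC name reached 1 CPM in every pool. The median CV was 0.62 for the members, 0.56 for the named loci and 0.64 for the LOC-named loci. Because abundance and breadth come from the same counts, these shares are given without a test.

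Most members did not depend on a single pool, but 18 of them would miss the sum of 150 without their highest pool. A single pool held at least 50% of the counts of 6 members. Both treatments reached a mean of 10 CPM for 152 members, control pools alone for 8 and methionine-rich pools alone for 8. Pools of the same cow differed about as much as pools of different cows: the median absolute log2 difference over the members was 1.08 within a cow and 1.14 between cows of a treatment.

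**Figure D3:**
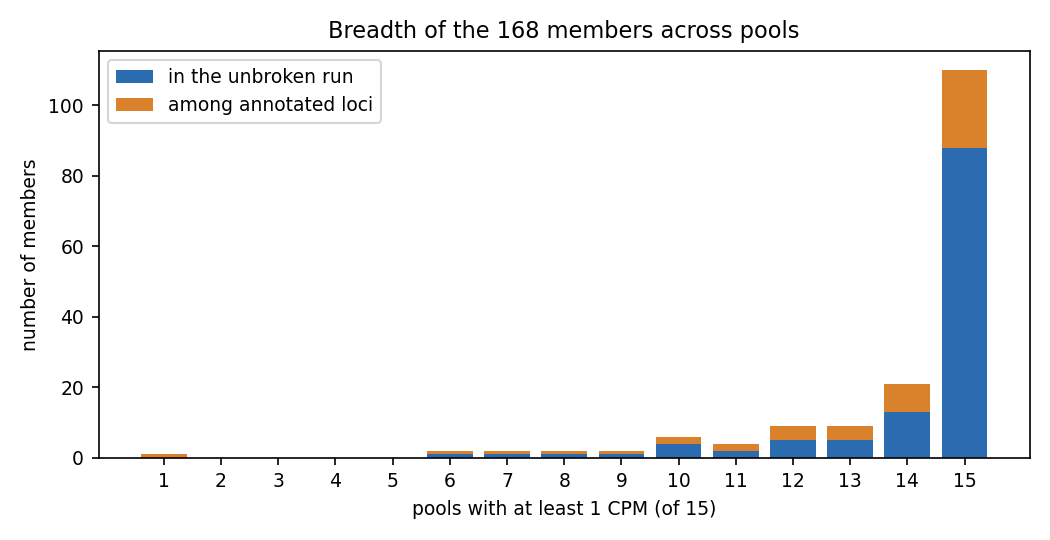
Number of members by the number of pools, of 15, in which they had at least 1 CPM, with members of the run in blue and members among annotated loci in orange. The bar at 15 pools holds 110 members, and the only member seen in 1 pool is CUFF.2654.1.

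Some members were almost absent from a pool and well represented in another. Counted after the values were seen, 43 members had less than 1 CPM in some pool and at least 50 CPM in another, 23 of them in the run and 20 among annotated loci. This was 25.6% of the members, beside 8.73% of the named and 18.3% of the LOC-named loci of the same minimum sum, and it held for 10 of the 84 more abundant and 33 of the 84 less abundant members. CUFF.3201.1 (XLOC_021261) gave the highest value of this kind, with 888.6 CPM in methionine-rich pool 7.1, 230.3 CPM in pool 7.2 of the same cow and 253.5 CPM in control pool 4.1. In the other 12 pools it stayed between 0 and 5.73 CPM. CUFF.3306.1 (XLOC_021366) reached 332.6 CPM in control pool 1.2 and 116.4 CPM in methionine-rich pool 7.2, whereas 5 pools lay under 1 CPM. Both units were high in pools of both treatments, while the pools under 1 CPM were from both treatments for CUFF.3201.1 and all methionine-rich for CUFF.3306.1.

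The unit next to CUFF.3201.1 in the run, CUFF.3203.1 (XLOC_021262), shared part of its pattern. It had 228.3 CPM in methionine-rich pool 7.1 and 74.9 CPM in pool 7.2, and 39.4 CPM in control pool 4.1, but also 68.9 CPM in control pool 2.2. The r of log2(CPM + 1) between these neighbours was 0.77 (rho = 0.66, 15 pools). CUFF.3130.1 and CUFF.3131.1 (XLOC_021190 and XLOC_021191) were more alike, at r = 0.79 (rho = 0.64), and both were almost absent from control pool 4.2, with 1.16 and 1.03 CPM. Such resemblance was rare, since the median r over the 48 pairs of members with consecutive numbers in the run was 0.10 and only these 2 pairs exceeded 0.7. Over all 7260 pairs in the run the median was 0.05, and over 1632 consecutive pairs of annotated loci of the same minimum abundance it was 0.07.

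The 47 members among annotated loci were listed beside genes of known function in the embryo in several cases, named here after their values were seen. CUFF.571.1 was listed next to GATA3 and CUFF.515.1 next to CDX2, both transcription factors of the trophectoderm. CUFF.571.1 averaged 14.2 CPM against 42.5 CPM for GATA3, and CUFF.515.1 averaged 11.6 CPM against 3.92 CPM for CDX2. CUFF.515.1 was uneven, with 78.96 CPM in control pool 4.1 and less than 1 CPM in 8 of the 15 pools. CDX2 had a median of 1.96 CPM and its highest value, 27.3 CPM, in control pool 3.1. Their patterns over the 15 pools were unlike those of the neighbouring factors, with r = 0.11 and r = -0.12. CUFF.2344.1, at 194.6 CPM, was listed after GJB5, a gap junction protein, at 121.9 CPM (r = 0.22).

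Over all 47 of these members, 35 had a higher mean CPM than the named loci on both sides. For 13 of them both neighbours were under 1 CPM. The members were chosen by a minimum sum that the neighbours did not have to reach, so the former count follows largely from that choice. The same count for named loci against their own neighbours was not made. For the 47 neighbours of at least 1 CPM, out of 94, the median r with the member was -0.04 and the highest was 0.44. Being listed beside a gene gives an order and not a distance, and strand was not known. Of these members, 3 shared their locus with an annotated name, namely PRDM2 with CUFF.921.4, INO80D with CUFF.1445.7 and MED7 with CUFF.2869.2, and reads of the unit and the gene cannot be told apart there.

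The comparison of diets asked whether embryos of methionine-fed cows differed in these units. Of the 168 members, all of which were tested, 2 were called by the exact test of edgeR at a false discovery rate (FDR) below 0.10 with a change of 2-fold or more. That is 1.19% of the members, beside 1.05% of all 10519 loci tested, and both called units reached the minimum sum only through 1 pool. By direction, 1 member was higher in control, where 0.77% of all loci were called, and 1 was higher in methionine-rich, where 0.276% were called. The quasi-likelihood test of edgeR called 0 members and 0% of all loci, with 4 members and 909 loci at an unadjusted p under 0.05. At this unadjusted level the exact test had 8 members, or 4.76%, beside 8.54% of all loci. DESeq2 called 1 of the 168 members, beside 67 of all 10519 loci tested. With limma voom, in which cow was a random effect, 0 members and 0 of all loci were called.

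The median log2 fold change, methionine-rich over control, was -0.02 over the members and -0.05 over all loci tested. It was -0.03 for members of the run and 0.00 for members among annotated loci. The lower and upper quartiles of the members were -0.39 and 0.22. In 145 members (86.3%) the estimate was within 2-fold, as it was in 92.3% of the named loci of the same minimum abundance. The standard error of the DESeq2 estimate differed widely between units, from 0.14 for CUFF.1726.1 to 1.19 for CUFF.606.1 and 2.55 for CUFF.2654.1, and a small estimate does not show that the treatments were alike.

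**Figure D4:**
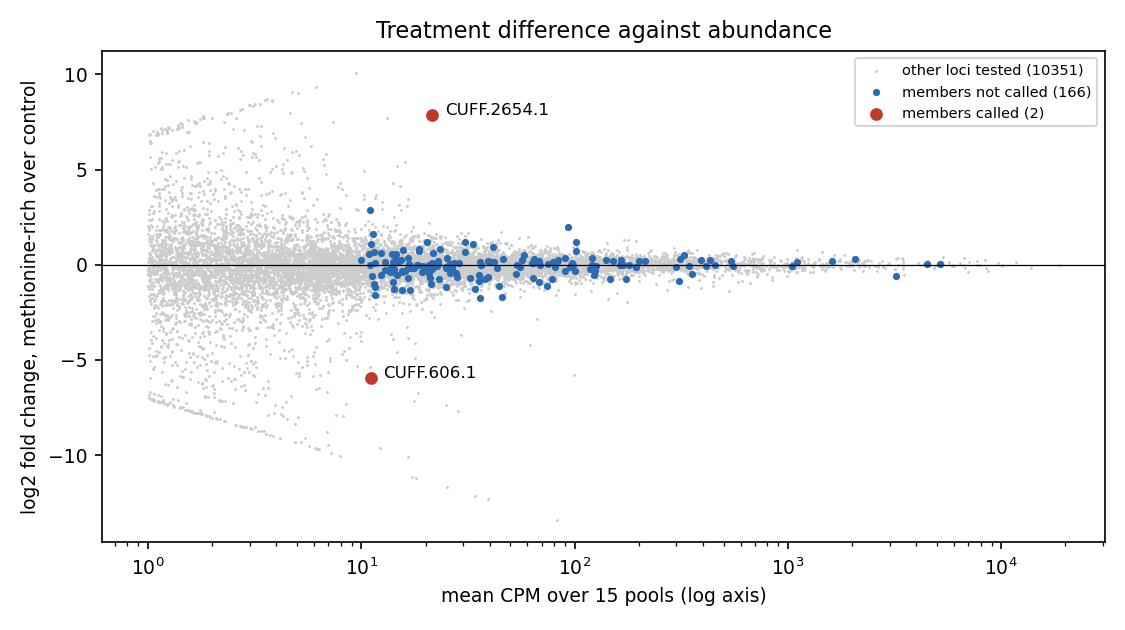
Log2 fold change, methionine-rich over control, of the exact test against mean CPM over 15 pools (log axis), with 10351 other loci in grey, 166 members not called in blue and the 2 called members in red. The called units lie apart from the other members and at low mean CPM, 11.1 for CUFF.606.1 and 21.5 for CUFF.2654.1.

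CUFF.606.1 (XLOC_003301) was the unit called as higher in control. Its CPM in the control pools was 0.132 in pool 1.1, 1.80 in 1.2, 125.7 in 2.1, 21.7 in 2.2, 0 in 3.1, 12.2 in 4.1 and 1.16 in 4.2, and in the methionine-rich pools it lay between 0 and 1.19 with a median of 0.16. Both pools of control cow 2 and a single pool of control cow 4 were high, and the other control pools overlapped the methionine-rich range or nearly so. The log2 fold change was -5.94 (FDR = 0.00396, exact test of edgeR), and DESeq2 gave -6.05 with a standard error of 1.19 (adjusted p = 4.6e-04). The quasi-likelihood test of edgeR gave an FDR of 0.302, and the exact permutation test over the 8 cows, two-sided, gave p = 0.257, where the smallest possible p is 0.0286.

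The call of CUFF.606.1 rested on control pool 2.1, which held 73.2% of its counts. Without this pool the log2 fold change was -3.82 and the FDR of the exact test 0.193, and without cow 2 they were -3.03 and 0.448. Its sum without pool 2.1 was 40.1 so that it would not have been a member. This is the pool in which the leukocyte list summed to 2330.9 CPM, with LAPTM5 at 1239.1 CPM and TYROBP at 377.3 CPM, and CUFF.606.1 was also high in control pools 2.2 and 4.1, where that list was at most 57.4 CPM. Which cells the transcripts of that list came from, and their part in the level of CUFF.606.1, was not tested. It was listed between CST7, a cystatin protease inhibitor, which averaged 0 CPM, and ENTPD6.

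CUFF.2654.1 (XLOC_018379), called as higher in methionine-rich, was in effect present in 1 pool. It had 321.3 CPM in methionine-rich pool 6.1 and at most 0.278 CPM in the other 7 methionine-rich pools, against 0 CPM in 5 control pools, 0.659 CPM in control pool 4.1 and 0.386 CPM in control pool 4.2. Pool 6.2 of the same cow had 0.168 CPM. The log2 fold change of 7.88 (FDR = 0.0606, exact test of edgeR) rested on that pool alone, and the exact permutation test over cows gave p = 0.457. DESeq2, which can replace outlying counts, estimated -0.42 with a standard error of 2.55 and no adjusted p. Its sum without pool 6.1 was 1.89, so that it was a member only through that pool, and in control pool 3.2 it had 21.2 CPM. The neighbouring RPL34, a ribosomal protein gene, averaged 1059.4 CPM and did not follow it (r = -0.07).

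For 2 members, or 1.19%, every cow of a treatment exceeded every cow of the other in mean CPM, beside 2.21% of all loci tested. CUFF.3348.1 (XLOC_021408) had cow means of 7.70, 4.16, 9.56 and 1.58 CPM in control and 11.4, 35.1, 9.84 and 10.8 CPM in methionine-rich. Its pools still overlapped, since control pool 1.2 had 11.7 CPM and methionine-rich pool 8.1 had 6.13 CPM. The log2 fold change was 1.62 and the FDR of the exact test of edgeR 0.374. CUFF.3337.1 (XLOC_021397) had cow means of 50.1, 84.2, 64.4 and 36.5 CPM in control and 23.8, 9.85, 20.96 and 12.4 CPM in methionine-rich. Within control cows 1, 2 and 4, however, 1 pool was high and the other had between 0.889 and 6.46 CPM, so that the separation held for the means and not for the pools. Its log2 fold change was -1.72 with an FDR of 0.573 by the same test, and it passed the threshold only when the pools of each cow were summed (FDR = 0.0843).

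**Figure D5:**
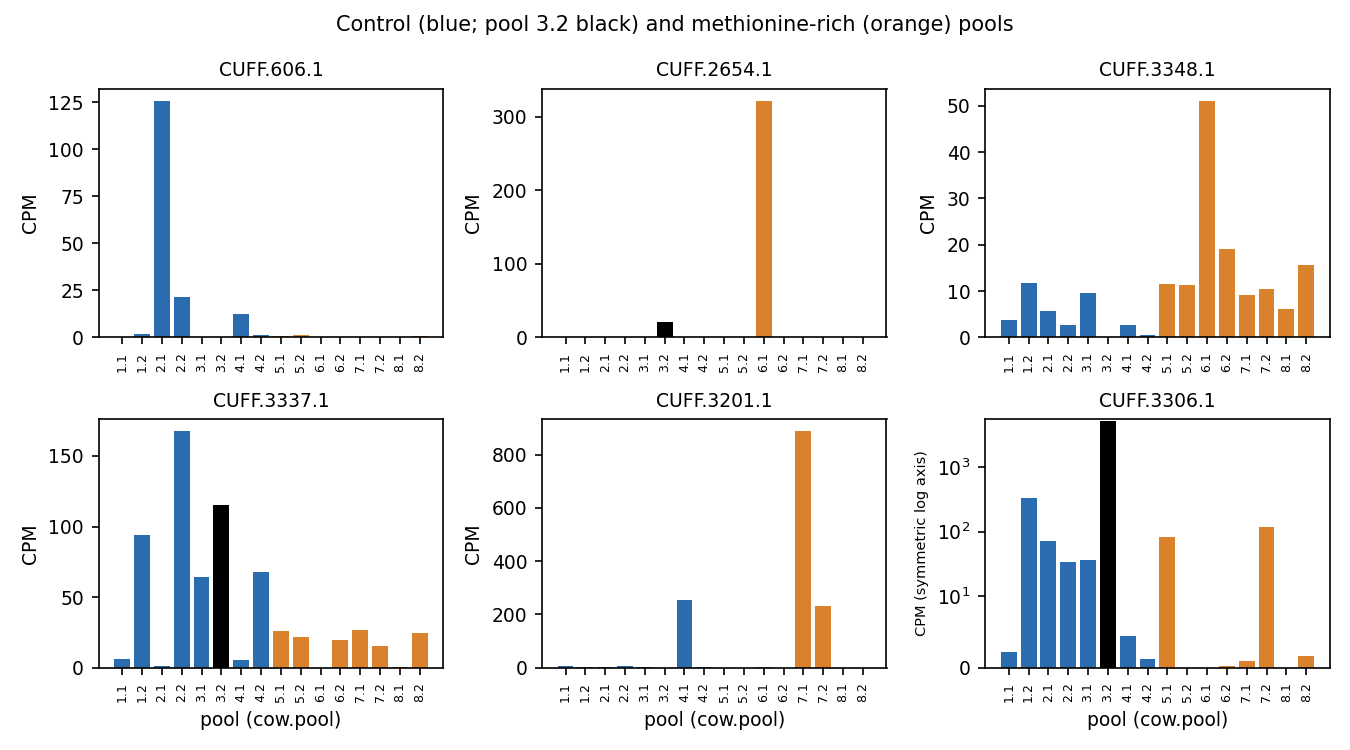
CPM per pool (cow and pool number) of 6 members, control in blue, control pool 3.2 in black and methionine-rich in orange; the axis of CUFF.3306.1 is logarithmic above 10 CPM. CUFF.606.1 peaks at 125.7 CPM in control pool 2.1, CUFF.2654.1 at 321.3 CPM in methionine-rich pool 6.1 and CUFF.3201.1 at 888.6 CPM in methionine-rich pool 7.1.

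None of the 10 most abundant members was called, and their FDR values in the exact test of edgeR were 0.802 to 1. The difference of greatest size among them was that of CUFF.3190.1, with 3932.6 ± 2383.1 CPM in control (SD, n = 7) and 2593.9 ± 1068.5 CPM in methionine-rich (SD, n = 8), a log2 fold change of -0.58 with a standard error of 0.38 on the DESeq2 estimate. CUFF.3403.1 (XLOC_021463) came next, with 1834.7 ± 406.3 CPM in control and 2267.5 ± 482.8 CPM in methionine-rich, a log2 fold change of 0.33. Over cows, the exact permutation test, computed for all 22 named units and not adjusted, gave p = 0.0286, the smallest possible, for CUFF.3348.1, which was named for its separated cow means and is therefore a description. For the 10 most abundant units the same exact test gave p values from 0.0857 for CUFF.1726.1 to 1. CUFF.2147.1, an unannotated unit at a sum of 123.4, was not a member.

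Control pool 3.2, which had no part in the choice of members, provided a further view of them. It had at least 1 CPM for 109 members and less for 59 (35.1%), compared with 146 to 162 members at this level in the other pools. At its depth a floor of 3 counts equals 1.72 CPM, and 5 of the 59 had at least 10 CPM in every other pool. CUFF.2344.1, for example, had 2 counts there and 67.8 to 323.1 CPM elsewhere. Of the named loci with the same minimum sum, 21.6% were under 1 CPM in this pool. The share of counts in the members was 3.52%, within the range of the other pools. For 19 members (11.3%) it was the highest of all 16 pools, as it was for 12.1% of the named loci. CUFF.3306.1 had 5263.5 CPM there, against at most 332.6 CPM elsewhere, and CUFF.3161.1 had 1830.9 CPM, against at most 911.1 CPM.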

How the data were processed

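RNA of 16 blastocyst pools was amplified in rounds of linear amplification and sequenced. Per the labels and the study's methods, the authors mapped reads to bosTau7 with TopHat2 2.0.4, assembled transcripts with Cufflinks 2.0.2, merged them with the NCBI annotation and counted reads per locus with htseq-count. The deposited values are raw counts. Each locus was entered once, and CPM was computed on the total of each pool. Amplification of little RNA adds spread between pools. The pool totals equal the study's numbers of uniquely mapped reads on exons, so that repeats present at several loci count only where a read maps uniquely.

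The members, lists and tests were chosen with earlier results of these data known. Control pool 3.2 was left out, as in the study. Loci with a summed CPM of at least 15 were compared by the exact test of edgeR 4.0.16 (R 4.3.3) with TMM factors and tagwise dispersions, Benjamini-Hochberg adjusted over all loci; limma 3.58.1 and DESeq2 1.42.0 served as alternatives. Cow means of log2(CPM + 1) were compared by exact permutation over 70 assignments. The code was tested on simulated data.

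Named units were the 10 most abundant, the called units, the 5 with the lowest and the 5 with the highest CV, those with separated cow means, the 3 on either side of the minimum sum, the 5 highest in control pool 3.2, and CUFF.606.1 and CUFF.2147.1. Units named beyond this rule are described as chosen after their values were seen, or are neighbours of each other. Fixed marker lists of primitive endoderm, cumulus or granulosa, oviduct or endometrium and oocyte had median sums in control pools of 1540.6, 16.3, 0.165 and 9.00 CPM. Alternatives are given at the close.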

Additional observations from a re-analysis of the deposited data

Results flagged for a closer look

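In 44 groups of pools, the control and methionine-rich pools of each named unit, 1 pool lay farther from the rest than Dixon's 95% critical value on the log2(CPM + 1) scale in 4 groups. Chance gives about 1 in 20, but units such as CUFF.2654.1 and CUFF.3201.1 were named for their high CV, so that the number of groups is not a test. CUFF.3261.1 had 3046.5 CPM in control pool 4.2, against 540.8 to 976.5 CPM in the other control pools. CUFF.3402.1 had 280.5 CPM in the same pool, against 372.3 to 457 CPM. CUFF.3201.1 had 253.5 CPM in control pool 4.1, against 0.943 to 5.73 CPM. CUFF.2654.1 had 321.3 CPM in methionine-rich pool 6.1, against 0 to 0.278 CPM.

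Control pool 3.2, used in no comparison, held 4 of its 5 most abundant members at a level above all 15 other pools. These were CUFF.3190.1 at 9473.7 CPM (at most 8171.5 elsewhere), CUFF.3306.1 at 5263.5 CPM (at most 332.6), CUFF.3403.1 at 3718.5 CPM (at most 3172.9) and CUFF.1726.1 at 2228.0 CPM (at most 1365.1).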

How the results depend on the processing

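The number of members called, 2 by the exact test, was 0 with the quasi-likelihood test, 0 with that test and the pool number as a replicate block, 0 with limma voom, 1 with DESeq2, 1 with no filter but 1 count, 0 with at least 10 counts in every pool (105 members tested) and 0 without control pool 2.1. It ranged from 0 to 3 when each cow was left out, with 0 without cow 2. Over these and the remaining alternatives, 20 in all, CUFF.606.1 was called in 14 and CUFF.2654.1 in 8. Over all loci, 110 were called by the exact test, 341 with all 16 pools, 64 without control pool 2.1, 55 without the filter, 67 by DESeq2, and 0 by the quasi-likelihood test, with or without the block, by limma voom and with at least 10 counts in every pool. Leaving out each cow gave 62 to 153. Pools share only a number across cows, so that the block does not mark a shared batch.

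The log2 fold change of CUFF.2654.1 turned to -0.42 in DESeq2. With all 16 pools, the estimates of CUFF.3403.1, CUFF.3362.1, CUFF.1726.1 and CUFF.3317.1 changed sign to -0.043, -0.095, -0.23 and 0.059. That of CUFF.3317.1 was 0.0098 with summed cow pools and that of CUFF.3182.1 was -0.0027 without control pool 2.1. Leaving out each cow gave ranges across 0 for CUFF.3369.1 (-0.0044 to 0.12), CUFF.3182.1 (-0.16 to 0.41), CUFF.3261.1 (-0.24 to 0.40), CUFF.3317.1 (-0.26 to 0.19) and CUFF.3161.1 (-0.17 to 0.22). On mean CPM the difference of CUFF.3261.1 over cows changed sign, at p = 1 in the exact permutation test. Apart from CUFF.2654.1, none of these units was called in any setting.

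The share of counts in the members, a median of 3.08%, was 3.44% without the 10 loci with the most counts, whose removal lowers the total. The number of members stayed between 166 and 173, and 90 to 141 members passed the other detection limits or pool sets, against 110; with minimum sums of 75 and 300 the count was 120 and 93. Leaving out control pool 2.1 for this count was added after the data were seen and gave 110. The median log2 fold change lay between -0.07 and 0.003.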
